A study of Drosophila melanogaster with 21 samples.

Results

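The 20d miR-34 mutant brain was compared with the 20d control brain across all genes, to describe which functions were higher and which lower in mid-life. The comparison rested on 6 of the 21 libraries of the series, 3 of mutant and 3 of control brains, which were taken by the genotype and age given in their labels. The series profiled polyA RNA of Drosophila melanogaster brains in a pair of separately run experiments. The first held mutant and control brains at 3d and 20d, and the second followed control brains with age. Each group had 3 biological replicates.

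Both groups used here were male brains of 20d flies reared on standard molasses food, with 20 brains pooled in each library and no further treatment. The control was the w1118 stock 5905, and the mutant, {delta}miR-34 in the labels and w1118;;miR-34 in the study's list of stocks, carried a deletion of the microRNA gene in every cell of the body. The 3d mutant and 3d control brains of the same experiment were used only to say where the difference at 20d was unlike that at 3d.

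MicroRNAs are short RNAs that guide Argonaute proteins to sites in the 3′ untranslated regions of messenger RNAs, which lowers the stability or the translation of these targets. miR-34 is conserved from flies to mammals. In the fly it is abundant in the adult brain and accumulates with age, and flies that lack it are known for a short lifespan and for degeneration of the aging brain.

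The table of counts had no row for mir-34, so its loss was not measured directly. The noncoding transcript that contains the gene, lncRNA:CR43459, had 17.98, 15.6 and 19.1 CPM (counts scaled to library size with TMM factors) in the 3 libraries labelled control and 759, 903 and 843 CPM in those labelled mutant. Its log2 fold change was 5.57 (standard error 0.10, adjusted p = 1.88e-13), so the groups were fully apart at this locus, with the higher level under the mutant label. Directions between genotypes are given for the libraries as labelled.

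Markers of brain cells were present in every library. The neuronal RNA-binding gene elav had 199.7 to 252.7 CPM in controls and 191 to 226 CPM in mutants, and its log2 fold change of -0.11 did not pass the threshold (adjusted p = 0.343). The glial transcription factor repo had 105 to 119 CPM in controls and 138 to 145 CPM in mutants. Summed over 24 markers of photoreceptors and lamina, the level ran from 34161 to 59416 CPM in controls and from 27622 to 59804 CPM in mutants, so retinal RNA was abundant and uneven within both groups. Markers of fat body summed to 5240 to 6801 CPM in controls and 5635 to 6469 CPM in mutants, those of muscle to 365 to 510.4 and 456 to 591 CPM, and those of hemocytes to 341 to 419 and 369 to 407 CPM. Of 23 markers of testis and male accessory gland, 12 had at most 3 counts in every library. Total counts per 20d library ran from 17932132 to 22521007. In bulk brains, fewer cells of a type and less RNA per cell cannot be told apart.

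At 20d, 1657 of 9961 tested genes were higher in the mutant (16.6%) and 1537 were lower (15.4%), so that 32.1% of genes were called at a Benjamini-Hochberg adjusted p under 0.05 in edgeR's quasi-likelihood test. Most differences were small. Only 334 genes were higher and 293 lower by at least 2-fold, and the median log2 fold change over all tested genes was -0.01. A total of 35 called genes had at most 3 counts in every mutant library, and 17 had at most 3 counts in every control library. Shares of gene lists are read against these 16.6% and 15.4%. In each list the members with the largest called rise and fall were taken by rule, and other members are examples picked after their values were seen. The strand setting of the counting is not given in the sources used here, so counts of genes whose exons overlap another gene are uncertain. Besides those said to overlap where they are described, these were Prosalpha2, Hsp68, Pi3K59F, ref(2)P, KCNQ, nAChRalpha3, Grd, Mmp1, Syn, repo, Dhc64C, cact, Dif, Diap1, grim, AGO1, AGO3, aub, piwi, E(z), hts, Cad99C and asRNA:CR43906.

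The level of a gene also varied with the length of its exons, and the trend belonged to 1 control library as well as to the mutants. For genes with up to 1000 bp of exon, the median log2 deviation from the control mean was 0.12, 0.10 and 0.12 in the 3 mutant libraries. It was -0.06 in control 1, 0.10 in control 2 and -0.04 in control 3. Beyond 8000 bp it was -0.13, -0.11 and -0.12 in the mutants, and 0.09, -0.09 and 0.01 in controls 1, 2 and 3. Control 2 therefore followed the mutants and not the other controls. In the shortest class 19.6% of genes were called higher and 8.93% lower, and in the longest class 6.004% and 32.5%. At 3d the mutant differed the other way, with a median log2 fold change of -0.14 in the shortest and 0.12 in the longest class. The part of this trend in each result was not tested beyond a repeat of the fit in which the trend of each library was removed, whose counts stand beside the lists where they matter.

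**Figure D1:**
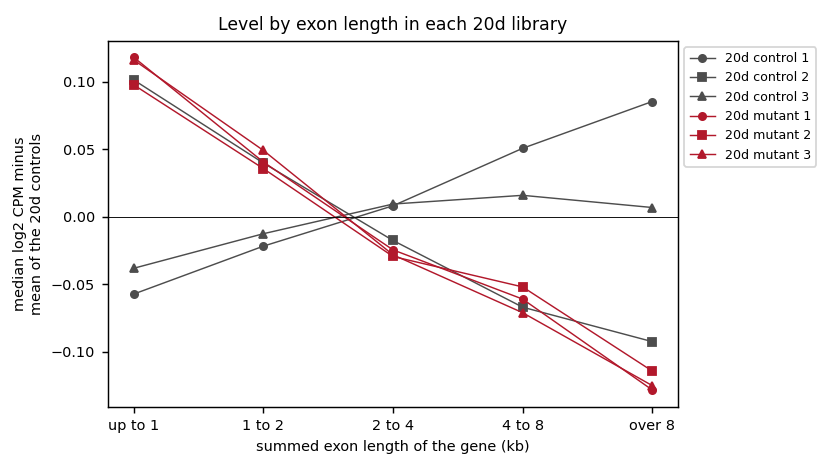
Median over genes of log2 CPM minus the mean of the 3 control libraries (vertical axis) by summed exon length of the gene in kb (horizontal axis), for each 20d library. Mutant libraries (red) and control 2 (grey squares) fall from between 0.10 and 0.12 in the shortest class to between -0.09 and -0.13 in the longest, while control 1 (grey circles) rises from -0.06 to 0.09.

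Genes of the protein synthesis machinery were higher together. Of 84 tested cytoplasmic ribosomal proteins, 66 were higher (78.6%) and 1 was lower, with a median log2 fold change of 0.36. The acidic stalk protein gene RpLP1 had the largest rise. It had 541, 687 and 571 CPM in controls and 973, 1041 and 1114 CPM in mutants, with the groups apart (log2 fold change 0.80, standard error 0.091, adjusted p = 1.97e-05). The exception was RpL37-2, a second copy of an RpL37 gene. RpL37-2 had 0.985 to 1.44 CPM in controls and at most 1 count in any mutant library, at least 8.11-fold lower. Across libraries, the median deviation of the ribosomal proteins was 0.30, 0.37 and 0.39 in mutants, and -0.12, 0.16 and -0.04 in controls, where control 2 again lay nearest to the mutants. With 1 library left out at a time, 56 (without control 1 or control 3) to 77 (without control 2) of the 84 were called higher. With the exon-length trend removed, 66 were higher and 3 lower, with a median of 0.29.

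The rise of the ribosomal proteins was not present at 3d. In the 3d comparison, where 16.5% of all genes were called higher and 15.0% lower, 67 of the 84 were lower and the other 17 did not pass the test, with a median log2 fold change of -0.35. The mutant effect at 20d was above that at 3d for 81 of the 84 in the test of the age by genotype interaction, which called 8.29% of all genes above and 10.3% below. With the exon-length trend removed, 57 were lower at 3d, with a median of -0.24. RpLP1 itself had a log2 fold change of -0.18 at 3d (adjusted p = 0.148).

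Translation factors moved in the same direction at 20d, with 26 of 49 higher, 1 lower and a median of 0.22. eIF2beta, a subunit of the factor that brings the initiator tRNA to the ribosome, rose most, from 45.6, 49.1 and 46.2 CPM in controls to 72.8, 72.9 and 77.2 CPM in mutants (log2 fold change 0.66, standard error 0.077, adjusted p = 2.36e-05). Its exons overlap those of ver, so its counts are uncertain. Abundant members also rose. The elongation factor eEF2 had 1631 to 1799 CPM in controls and 2253 to 2423 CPM in mutants. The poly(A)-binding protein gene pAbp had 2076 to 2383 CPM in controls and 2979 to 3305 CPM in mutants. The 1 member that fell was eIF4EHP, a cap-binding protein that represses translation, with a log2 fold change of -0.22 (adjusted p = 0.0153), and it lost its call in 4 alternatives, among them the one with the exon-length trend removed.

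The enzymes that charge tRNAs and the factors that build ribosomes followed in part. Of 18 cytoplasmic aminoacyl-tRNA synthetases, 7 were higher and the other 11 did not pass the test. LeuRS had 29.5, 29.0 and 29.2 CPM in controls and 39.3, 45.8 and 53.1 CPM in mutants (log2 fold change 0.66, standard error 0.087, adjusted p = 6.7e-05). Of 28 genes of nucleolar ribosome assembly, 7 were higher and 1 was lower, and 4 were higher without control 1, control 2 or mutant 2. Non1, a nucleolar GTPase, rose from 166 to 198 CPM in controls to 386 to 407 CPM in mutants, a log2 fold change of 1.12 (adjusted p = 7.56e-08), and had a log2 fold change of 1.11 at 3d. Nop17l fell from 95.3 to 119 CPM in controls to 72.6 to 91.0 CPM in mutants (log2 fold change -0.39, adjusted p = 0.00464). Its exons overlap PolZ1.

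**Figure D2:**
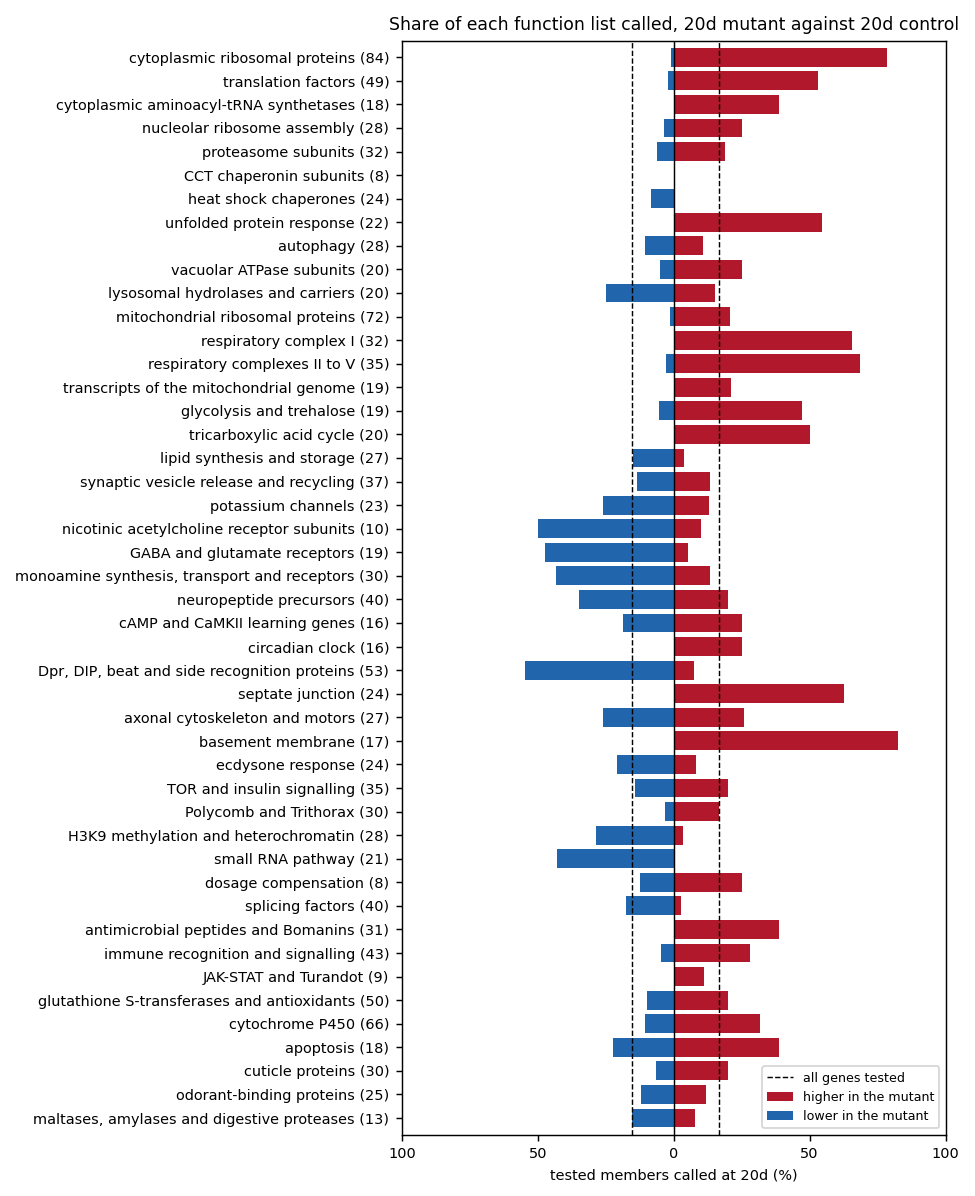
Percent of the tested members of each function list that were called higher (red, to the right) or lower (blue, to the left) in the 20d mutant, with the number tested in brackets. Dashed lines mark the shares over all genes, 16.6% higher and 15.4% lower. Basement membrane, ribosomal protein and respiratory chain genes reach the furthest to the right, and Dpr, DIP, beat and side genes the furthest to the left.

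Genes of protein folding in the endoplasmic reticulum were also often higher. Of 22 genes of the unfolded protein response, 12 were higher and the other 10 did not pass the test, with a median of 0.23. Hrd3, a part of the ubiquitin ligase complex that clears misfolded proteins, had 43.4, 39.5 and 38.8 CPM in controls and 49.6, 56.2 and 56.0 CPM in mutants (log2 fold change 0.41, standard error 0.074, adjusted p = 0.000797). Its exons overlap PTPMT1 and Rpt5. The count of 12 was not stable. It was 5 in a fit of the 6 libraries of 20d alone, 6 without control 1, 5 without mutant 2 and 6 without mutant 3.

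Cytosolic quality control gave fewer calls. Among 32 proteasome subunits, 6 were higher and 2 lower, close to the background for rises. Without control 2, 10 were higher and 1 lower. Prosalpha2, a subunit of the catalytic core, rose from 38.2 to 45.1 CPM in controls to 55.2 to 58.7 CPM in mutants (log2 fold change 0.48, adjusted p = 0.0003). Rpn2, of the regulatory particle, had a log2 fold change of -0.21 (adjusted p = 0.0459) with overlapping groups, and lost its call in 9 of the alternatives.

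Heat shock chaperones varied widely between replicates. Of 24 tested, 2 were lower and the other 22 did not pass the test, with a median of -0.59 that moved to -0.01 without control 2. The inducible chaperone Hsp68 had 23.9, 359 and 747 CPM in the controls and 36.8, 156 and 223 CPM in the mutants. Hsp67Bc, a small heat shock protein, was the steadier case, and fell from 10.3, 15.5 and 19.2 CPM in controls to 4.92, 5.56 and 5.64 CPM in mutants (log2 fold change -1.48, standard error 0.21, adjusted p = 0.000327).

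Autophagy genes gave few calls, with 3 of 28 higher and 3 lower. The 3 higher calls were lost without control 3, 1 gene was higher and 1 lower without mutant 2, and 5 were lower with the exon-length trend removed. Atg12, a ubiquitin-like protein of the conjugation system, had 20.5, 22.7 and 19.5 CPM in controls and 26.8, 25.6 and 25.8 CPM in mutants (log2 fold change 0.32, adjusted p = 0.0159), with exons shared with ND-SGDH. It lost its call without control 3. Pi3K59F, the lipid kinase of autophagosome nucleation, had 29.8 CPM or above in controls 1 and 3 and 27.8 CPM in control 2, against 22.7 to 26.8 CPM in mutants (log2 fold change -0.37, adjusted p = 0.0118), and lost its call in a fit of the 20d libraries alone, without control 1 and without mutant 2. ref(2)P, the fly p62 adaptor that autophagy consumes, fell from 259, 250.1 and 274 CPM to 215, 211 and 211 CPM (log2 fold change -0.30, standard error 0.059, adjusted p = 0.00162). Atg8a, the membrane-anchored ubiquitin-like protein, had 393 to 453 CPM in controls and 417 to 449 CPM in mutants, and its log2 fold change of 0.06 did not pass the threshold (adjusted p = 0.474).

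Lysosomal genes moved singly. Of 20 hydrolases and carriers, 3 were higher and 5 lower, and 5 and 3 without control 2 or mutant 1. Sgsh, a lysosomal sulfatase given among the largest falls below, was not in this list. Cln7, a lysosomal membrane protein, rose from 5.002, 7.74 and 5.70 CPM to 14.5, 17.9 and 17.8 CPM (log2 fold change 1.44, adjusted p = 8.56e-06), with exons that overlap lark. Npc2h, of a sterol carrier family, had 49.6 to 84.4 CPM in controls and 40.3 to 44.1 CPM in mutants (log2 fold change -0.65, adjusted p = 0.0278), and lost its call in 7 alternatives. Among 20 subunits of the vacuolar ATPase, the proton pump of lysosomes and synaptic vesicles, 5 were higher and 1 lower, and 2 were higher without control 1 or mutant 2 and 3 without control 3 or mutant 3. Vha13 rose from 278 to 286 CPM to 339.8 to 349.9 CPM (log2 fold change 0.30), and VhaAC45RP fell from 406 to 427 CPM to 295 to 321 CPM (log2 fold change -0.44, adjusted p = 6.7e-05).

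Respiratory chain genes were often higher in the 20d mutant. In respiratory complex I, 21 of 32 subunits were higher and the other 11 did not pass the test, with a median log2 fold change of 0.28. ND-B18 had 36.0, 40.3 and 37.99 CPM in controls and 68.9, 69.6 and 74.3 CPM in mutants (log2 fold change 0.90, standard error 0.075, adjusted p = 1.18e-06), and its exons overlap opm. In complexes II to V, 24 of 35 were higher and 1 lower, with a median of 0.24. ATPsynF, of the ATP synthase, rose from 184, 204.6 and 182 CPM to 285, 284 and 295 CPM (log2 fold change 0.60, adjusted p = 8.6e-06), with exons that overlap CG13587. The 1 lower member was COX7AL, which had 0.673 to 0.992 CPM in controls and at most 1 count in any mutant library, at least 5.80-fold lower. With the exon-length trend removed, 21 of complex I and 18 of complexes II to V were higher.

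Unlike the ribosomal proteins, the respiratory genes were also higher at 3d. There 23 of the 32 and 29 of the 35 were higher, and the mutant effect differed between ages for 2 members of complex I, 1 in each direction, and for 2 of complexes II to V, both lower at 20d. Of 19 transcripts of the mitochondrial genome, 4 were higher at 20d and the other 15 did not pass the test. mt:ND6, another subunit of complex I, rose from 4.96, 7.97 and 7.18 CPM to 14.2, 12.6 and 12.6 CPM (log2 fold change 0.98, adjusted p = 0.000255), with a log2 fold change of -0.26 at 3d. Without control 1, 4 of these transcripts were called lower. Of 72 mitochondrial ribosomal proteins, 15 were higher and 1 lower, and 9 and 4 with the exon-length trend removed. mRpL45, the lower one, had a log2 fold change of -0.20 (adjusted p = 0.0473) and lost its call in 10 alternatives.

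Glycolysis and the tricarboxylic acid cycle also had more higher than lower calls. Of 19 genes of glycolysis and trehalose use, 9 were higher and 1 was lower. Pgk, the phosphoglycerate kinase of lower glycolysis, rose from 160.4, 193 and 188 CPM to 321, 340.1 and 364 CPM (log2 fold change 0.92, standard error 0.077, adjusted p = 1.13e-06), and its exons overlap Cwc25. Treh, which splits the blood sugar trehalose, was the lower member. It had 710.5, 583 and 605 CPM in controls and 307, 389 and 433 CPM in mutants (log2 fold change -0.75, adjusted p = 0.000477), with exons that overlap Rbpn-5. In the tricarboxylic acid cycle 10 of 20 were higher, led by Scsalpha1, a subunit of succinyl-CoA synthetase, from 177 to 215 CPM to 302 to 317 CPM (log2 fold change 0.65, adjusted p = 1.05e-05). Both lists were higher at 3d as well, with 11 of the 19 and 14 of the 20 called higher.

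Lipid genes gave 1 higher and 4 lower among 27, and 8 lower without control 1. whd, the carnitine palmitoyltransferase that carries fatty acids into mitochondria, rose from 91.8 to 108 CPM to 138 to 144 CPM (log2 fold change 0.49, adjusted p = 0.000311). ATPCL, the citrate lyase that supplies acetyl-CoA for fatty acid synthesis, fell from 331, 392 and 409.8 CPM to 258, 277 and 288 CPM (log2 fold change -0.46, adjusted p = 0.000472), whereas at 3d its log2 fold change was 0.30, a difference between ages of -0.76 (adjusted p = 0.00066). Exons of both genes overlap other genes.

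**Figure D3:**
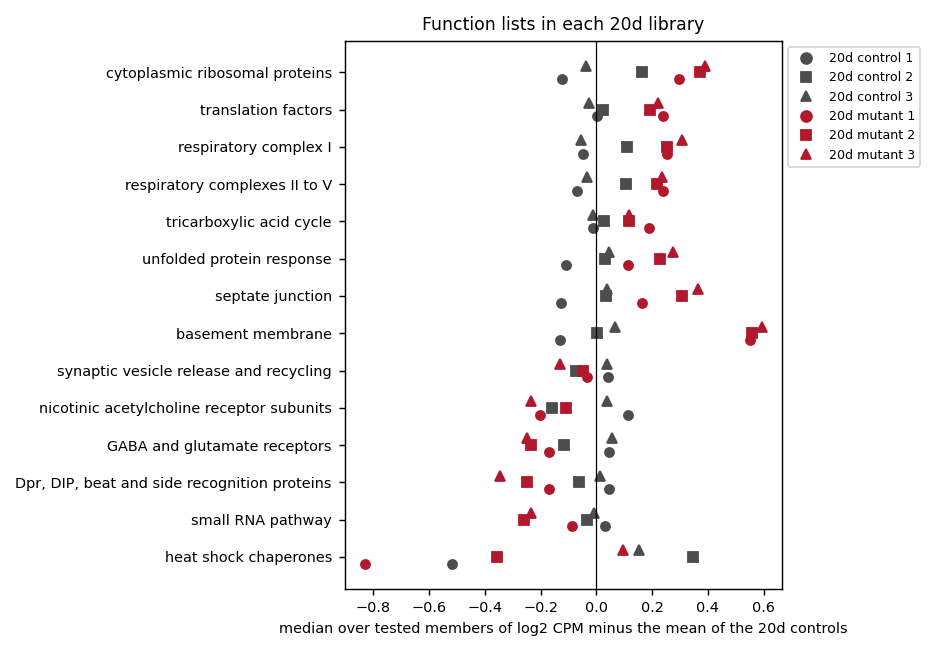
Median over the tested members of each list of log2 CPM minus the mean of the 3 controls (horizontal axis), for each 20d library. All 3 mutant libraries (red) lie to the right of all 3 controls (grey) for ribosomal protein, respiratory and basement membrane genes and to the left for Dpr, DIP, beat and side genes, while heat shock chaperones overlap.

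Lists of neuronal signalling genes differed from each other in direction. Of 37 genes of synaptic vesicle release and recycling, 5 were higher and 5 lower. prt, a vesicular transporter of mushroom body neurons, rose from 20.7 to 23.0 CPM to 27.2 to 33.4 CPM (log2 fold change 0.53, adjusted p = 0.00176). Rop, the Munc18 protein that holds syntaxin for vesicle fusion, fell from 364, 367 and 378 CPM to 265, 274 and 271 CPM (log2 fold change -0.45, standard error 0.047, adjusted p = 9.03e-06). At 3d, 29 of the 37 were higher and the other 8 did not pass the test, and for 29 of the 37 the mutant effect at 20d was below that at 3d, against 10.3% of all genes. Rop was among these, with a log2 fold change of 0.19 at 3d. The neuron markers, some of them synaptic genes, shifted likewise, with 10 of 12 higher at 3d and 9 whose effect at 20d was below that at 3d. The vesicle genes are long, with a median exon length of 5622 bp. With the exon-length trend removed, 25 were higher at 3d, and 7 were higher and 4 lower at 20d. At 20d, 10 were lower without control 2, 3 without mutant 2 and 2 without control 1 or mutant 3, and 3 were higher without control 3, mutant 2 or mutant 3.

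Subunits of the nicotinic acetylcholine receptor, the main excitatory receptor of the fly brain, were lower in 5 of 10 cases and higher in 1. nAChRalpha7 had 485, 377 and 453 CPM in controls and 335, 328 and 273 CPM in mutants (log2 fold change -0.49, standard error 0.091, adjusted p = 0.000961), against 0.25 at 3d (adjusted p = 0.0507). nAChRalpha3 was the higher one, with a log2 fold change of 0.24 (adjusted p = 0.0297), and lost its call in 5 alternatives. For 8 of the 10 the effect at 20d was below that at 3d. At 3d, 7 were higher, and 5 with the exon-length trend removed.

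Of 19 GABA and glutamate receptors, 9 were lower and 1 was higher, with a median of -0.22. GluRIIA, best known as a subunit of the receptor at the neuromuscular junction, fell from 19.5, 17.6 and 20.0 CPM to 5.396, 5.04 and 5.37 CPM (log2 fold change -1.85, standard error 0.11, adjusted p = 7.04e-08), and its exons overlap CG14017. Grd, a GABA-gated channel subunit, rose from 15.2 to 17.3 CPM to 22.2 to 25.9 CPM (log2 fold change 0.57, adjusted p = 0.000245). With the exon-length trend removed, 9 were lower and 2 higher. Potassium channels showed 6 lower and 3 higher of 23, and 5 higher with that trend removed. KCNQ, the channel of the M-type current, fell from 58.0 to 60.6 CPM to 36.8 to 40.4 CPM (log2 fold change -0.63, adjusted p = 1.95e-05). Shal, of the A-type current, rose from 183 to 194 CPM to 246 to 262 CPM (log2 fold change 0.41, adjusted p = 2.5e-05).

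Among 30 genes of monoamine synthesis, transport and reception, 13 were lower and 4 higher, and 11 of the 13 were receptors. DAT, the dopamine transporter, had 22.3, 23.9 and 25.0 CPM in controls and 77.0, 73.5 and 67.9 CPM in mutants, with the groups far apart (log2 fold change 1.62, standard error 0.074, adjusted p = 1.13e-08). Its log2 fold change at 3d was 1.14. The other higher members were Pu (log2 fold change 1.05), which makes a cofactor of dopamine synthesis, ple (0.61), the tyrosine hydroxylase, and Tdc2 (0.44), which makes tyramine. Dop2R, a dopamine receptor, fell from 67.2, 56.6 and 60.5 CPM to 38.4, 30.6 and 30.0 CPM (log2 fold change -0.90, standard error 0.090, adjusted p = 6.35e-06). The other 12 lower members included the dopamine receptors Dop1R1 (-0.34) and Dop1R2 (-0.29), the tyramine receptor TyrRII (-1.11) and ebony, listed as e (-0.78), which conjugates dopamine to beta-alanine. Without control 1, 7 members were lower.

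Neuropeptide precursors differed in both directions, with 14 of 40 lower and 8 higher, and 5 higher without control 3 or mutant 1. SIFa, made by a few large cells of the central brain, rose from 19.4, 19.5 and 16.4 CPM to 49.2, 50.8 and 44.9 CPM (log2 fold change 1.39, standard error 0.085, adjusted p = 7.04e-08), and its exons overlap Start1. Pdf, the peptide of the circadian pacemaker neurons, fell from 195, 210.0 and 209 CPM to 97.9, 108 and 114 CPM (log2 fold change -0.94, adjusted p = 3.53e-06). It had a like difference at 3d (log2 fold change -1.02). Of 16 clock genes, 4 were higher (2 without control 1, control 3 or mutant 3), led by the repressor cwo (log2 fold change 0.37, adjusted p = 0.00914). Among the insulin-like peptides, Ilp5 fell from 32.9, 32.8 and 24.8 CPM to 22.9, 17.4 and 21.5 CPM (log2 fold change -0.55, adjusted p = 0.00961), Ilp2 had a log2 fold change of -0.46, and the scarce Ilp3 one of 1.11, both called.

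Of 16 genes of cAMP and CaMKII signalling, 4 were higher and 3 lower, and 5 were lower without control 2. CanB2, a calcineurin subunit, rose from 68.9 to 75.4 CPM to 92.5 to 93.6 CPM (log2 fold change 0.39, adjusted p = 8.17e-05). Nf1, a Ras regulator needed for olfactory memory, fell from 249.9, 191 and 209.6 CPM to 162, 147 and 153 CPM (log2 fold change -0.49, adjusted p = 0.000851), against 0.29 at 3d. Of 7 activity-regulated genes, 2 were higher, and 4 without mutant 1. Arc2, one of a pair of Gag-like Arc genes, rose from 4.71, 7.30 and 5.74 CPM to 15.7, 19.9 and 19.6 CPM (log2 fold change 1.64, standard error 0.21, adjusted p = 5.94e-05), with a log2 fold change of -0.08 at 3d and a difference between ages of 1.71 (adjusted p = 0.00264). Its neighbour in the family, Arc1, had a log2 fold change of 0.87 that did not pass the threshold (adjusted p = 0.0844).

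Surface proteins by which neurons recognise partners had the highest share of lower calls of any list. Of 53 tested Dpr, DIP, beat and side genes, 29 were lower (54.7%) and 4 higher, with a median of -0.26. DIP-theta fell from 43.9, 42.2 and 44.9 CPM to 24.6, 25.6 and 22.0 CPM (log2 fold change -0.86, standard error 0.070, adjusted p = 1e-06), and its exons overlap lncRNA:CR44822. DIP-delta went the other way, from 58.9, 50.5 and 60.7 CPM to 113, 110.1 and 96.9 CPM (log2 fold change 0.91, adjusted p = 1.36e-06). At 3d, 16 were higher and 2 lower, and for 36 of the 53 the effect at 20d was below that at 3d. With the exon-length trend removed, 9 were higher and 2 lower at 3d, where 16.5% of all genes were called higher in the main fit. The part of that trend in the difference between ages was not tested. The library medians were -0.17, -0.25 and -0.34 in mutants and 0.04, -0.06 and 0.01 in controls, without overlap. Removing the exon-length trend gave 30 lower and 5 higher, and leaving out 1 library at a time gave 27 to 33 lower. Without control 3, 2 were higher.

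**Figure D4:**
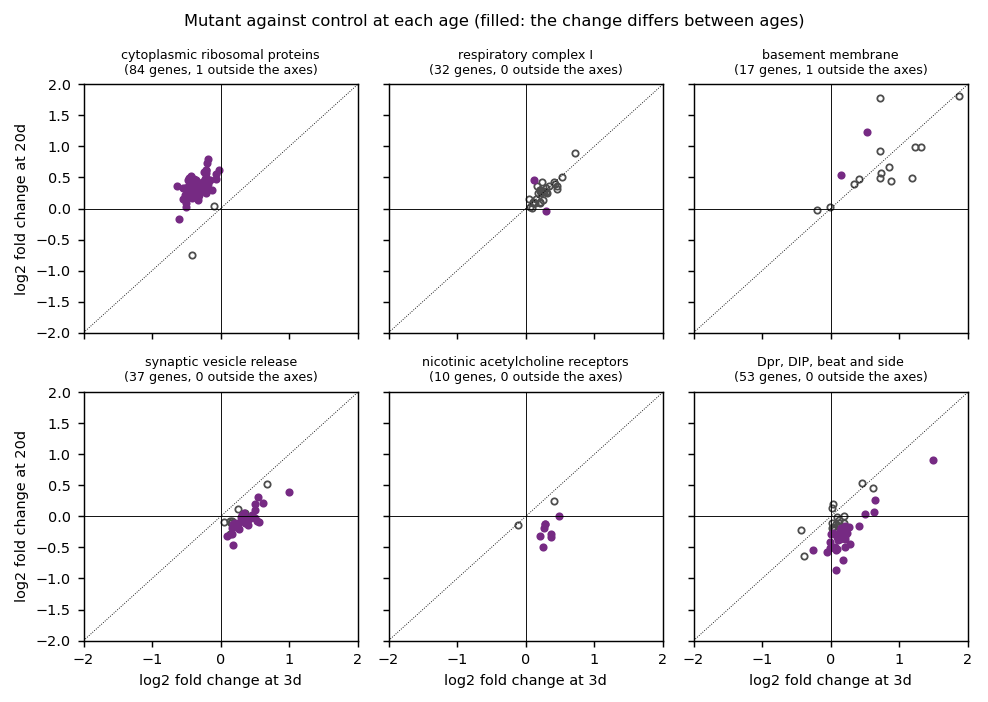
Log2 fold change of mutant against control at 20d (vertical axis) against that at 3d (horizontal axis) for each tested member of 6 lists. Filled points differ between ages in the interaction test, and the dotted line marks equal change. Most ribosomal proteins lie left of 0 and above it, synaptic vesicle genes and most Dpr, DIP, beat and side genes lie below the line, and complex I and basement membrane genes lie mostly near it.

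Genes of the basement membrane and of septate junctions were often higher, in bulk RNA that does not show which cells made it. Of 17 basement membrane genes, 14 were higher (82.4%) and the other 3 did not pass the test, with a median of 0.58. At 3d, 13 of the 17 were higher, with a median of 0.73. Col4a1, a collagen IV chain, had 116, 135 and 137 CPM in controls and 435, 449.8 and 473 CPM in mutants (log2 fold change 1.81, standard error 0.10, adjusted p = 6.44e-08). Its log2 fold change at 3d was 1.87. The second collagen IV chain, vkg, rose from 181, 195 and 191 CPM to 362, 368 and 395 CPM, a log2 fold change of 0.99. Laminins and their integrin receptors were among the higher members, with log2 fold changes of 0.99 for LanA, 0.67 for LanB2, 0.45 for LanB1 and 0.93 for the integrin mys. The metalloproteinase Mmp1 rose from 26.3 to 37.7 CPM to 61.6 to 84.8 CPM (log2 fold change 1.23, adjusted p = 8.94e-05). These genes have long exons, with a median of 5916 bp, so their rise ran against the trend with length, and 14 were higher with and without that trend.

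Septate junctions seal the glial blood-brain barrier. Of 24 genes, 15 were higher (62.5%) and the other 9 did not pass the test, with a median of 0.27. Gliotactin, listed as Gli, had the largest rise but the least even one, with 22.2, 34.8 and 39.0 CPM in controls and 40.3, 68.5 and 75.2 CPM in mutants (log2 fold change 0.94, standard error 0.29, adjusted p = 0.0374), and it lost its call in 6 alternatives. nrv2, a subunit of the sodium pump, was steadier, with 890.2, 883 and 900.2 CPM in controls and 1592, 1566 and 1589 CPM in mutants (log2 fold change 0.83, adjusted p = 6.52e-07). Atpalpha, the catalytic subunit of the same pump, had 4885 to 5159 CPM in controls and 7087 to 7140 CPM in mutants (log2 fold change 0.51).

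Markers of glial classes were called in both directions, with 5 of 14 higher and 5 lower, and 3 lower without control 2, control 3 or mutant 1. Their median log2 fold change was -0.01, and they summed to 5384 to 5535 CPM in controls and 5515 to 5772 CPM in mutants. The largest fall of the list was that of alrm, a marker of astrocyte-like glia, from 298, 317 and 285 CPM to 117, 109 and 109.7 CPM (log2 fold change -1.42, standard error 0.069, adjusted p = 1.63e-08). At 3d its log2 fold change was -0.47. Values of other astrocyte-like markers of the list are not given here. Markers of the barrier glia, moody and Mdr65, had log2 fold changes of 0.62 and 0.44, and both were called. repo, found in nearly all glia, had a log2 fold change of 0.30 (adjusted p = 0.00174). Among 12 neuron markers 4 were higher and the other 8 did not pass the test, with Syn, a synaptic vesicle phosphoprotein, at 749.7 to 852 CPM in controls and 1047 to 1089 CPM in mutants (log2 fold change 0.40, adjusted p = 0.000205). The median of the 12 was 0.02, and 2 were higher without control 3, mutant 2 or mutant 3. At 3d, 10 of the 12 were higher, with a median of 0.47, and for 9 the effect at 20d was below that at 3d.

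The cytoskeleton list of 27 genes divided evenly, with 7 higher and 7 lower. The myosin light chain sqh rose from 67.5, 91.3 and 78.7 CPM to 104.4, 129 and 135 CPM (log2 fold change 0.63, adjusted p = 0.000847). Dhc64C, the heavy chain of cytoplasmic dynein, fell from 329, 295 and 319 CPM to 222, 221 and 236 CPM (log2 fold change -0.47, adjusted p = 5.27e-05). Of 5 tested innexins, the gap junction proteins, Inx3 rose (log2 fold change 0.48, adjusted p = 0.000178) and shakB and Inx2 fell. shakB had a log2 fold change of -0.29 (adjusted p = 0.0101) and lost its call once the exon-length trend was removed.

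Immune effectors were higher at 20d but varied strongly between libraries. Of 31 tested antimicrobial peptides and Bomanins, 12 were higher and the other 19 did not pass the test, with a median of 1.69. Bomanins are short secreted peptides induced by the Toll pathway, and BomS3 rose from 30.9, 63.6 and 55.5 CPM to 168, 227 and 169 CPM (log2 fold change 1.91, standard error 0.29, adjusted p = 0.00116). Drs, the antifungal drosomycin, had 2.69, 18.3 and 6.01 CPM in controls and 49.7, 109 and 48.1 CPM in mutants (log2 fold change 2.94, standard error 0.79, adjusted p = 0.0219), and lost its call in 4 alternatives. Mutant 2 was the highest library for both genes and control 1 the lowest. Library medians of the list were 1.19, 2.25 and 1.20 in mutants and -0.67, 0.48 and 0.19 in controls. Of the 31, 7 were called in a fit of the 6 libraries of 20d alone. At 3d, 1 was higher and 3 lower, with a median of -1.09.

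Immune recognition and signalling genes were called higher in 12 of 43 cases and lower in 2, and lower in 1 without control 1, control 3 or mutant 3. PGRP-LE, an intracellular sensor of bacterial peptidoglycan, rose from 11.8 to 13.6 CPM to 18.5 to 23.2 CPM (log2 fold change 0.71, adjusted p = 5.01e-05). Of the list, 29 members did not pass the test. Toll pathway members picked after their values were seen, Tl (0.46), cact (0.43), dl (0.61) and Dif (0.27), were called higher, by the log2 fold changes in brackets. Toll-6, which guides neurons in the fly, fell from 86.9 to 98.0 CPM to 71.5 to 76.6 CPM (log2 fold change -0.33, adjusted p = 0.00223). Of 9 tested genes of JAK-STAT signalling and Turandot peptides, TotX alone was called, with 21.7, 34.7 and 19.6 CPM in controls and 64.4, 47.7 and 66.7 CPM in mutants (log2 fold change 1.23, adjusted p = 0.0455), and it lost its call in 7 alternatives.

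Among detoxification enzymes, cytochrome P450 genes were often called higher. Of 66 tested, 21 were higher (31.8%) and 7 lower (10.6%, under the share over all genes). With at least 10 counts required in every 20d library, 3 were lower. Cyp6w1 rose from 134, 129.5 and 149 CPM to 537, 573 and 599 CPM (log2 fold change 2.05, standard error 0.17, adjusted p = 1.16e-05), with a log2 fold change of 1.91 at 3d. Cyp6a2 fell from 28.2, 47.4 and 26.3 CPM to 5.78, 7.22 and 7.19 CPM (log2 fold change -2.34, standard error 0.22, adjusted p = 3e-05). Cyp4p2, with 10.3 to 15.1 CPM in controls and at most 3 counts in any mutant library, was at least 88.7-fold lower. P450 and glutathione S-transferase genes lie in families of close copies whose reads the counting could have divided. Among 50 glutathione S-transferases and antioxidant enzymes, 10 were higher and 5 lower. Without control 2, 16 were higher, and without mutant 3, control 1 or mutant 2, 5 or 6. GstO3 had a log2 fold change of 0.79 (adjusted p = 0.0265) with overlapping groups, and lost its call in 6 alternatives. GstD9 fell from 121 to 143 CPM to 58.5 to 70.1 CPM (log2 fold change -1.04, adjusted p = 1.05e-05).

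Genes of cell death were called in both directions, with 7 of 18 higher and 4 lower. Dronc, the initiator caspase, rose from 10.3, 9.54 and 10.7 CPM to 19.2, 25.0 and 25.7 CPM (log2 fold change 1.19, standard error 0.11, adjusted p = 3.06e-06). The effector caspase gene Drice rose by 0.82 and the death activator grim by 1.01 on the log2 scale. Diap1, which inhibits caspases, rose too, by 0.27, and the activator hid had a log2 fold change of -0.52 (adjusted p = 0.00302). egr, the fly tumour necrosis factor, fell from 42.4 to 48.0 CPM to 29.3 to 31.5 CPM (log2 fold change -0.55, adjusted p = 9.03e-05).

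Of 21 genes of small RNA pathways, 9 were lower (42.9%) and the other 12 did not pass the test. Gasz, a mitochondrial scaffold of piRNA production, fell from 45.7, 44.1 and 45.8 CPM to 34.7, 33.5 and 31.2 CPM (log2 fold change -0.45, standard error 0.065, adjusted p = 0.000147). The Piwi-class proteins AGO3, aub and piwi were also lower, by log2 fold changes of -1.63, -1.27 and -0.73 from levels under 7 CPM in every control library. AGO1, the Argonaute that carries most microRNAs, had a log2 fold change of -0.19 and was called. Without control 1 or mutant 3, 5 members were lower.

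Of 28 genes of H3K9 methylation and heterochromatin, 8 were lower and 1 was higher. G9a, a methyltransferase of histone H3 lysine 9, rose from 80.0, 73.1 and 79.8 CPM to 131, 128 and 122 CPM (log2 fold change 0.71, adjusted p = 4.36e-07). del, a cofactor of the heterochromatin protein Rhino in piRNA clusters, fell from 13.8 to 16.1 CPM to 7.63 to 9.45 CPM (log2 fold change -0.82, adjusted p = 8.59e-05), with exons that overlap pths. Of 30 Polycomb and Trithorax genes, 5 were higher and 1 lower, and 4 were lower without control 2, 2 without mutant 1 and 3 with the exon-length trend removed. Pcl had 43.7, 33.98 and 40.6 CPM in controls and 59.3, 51.3 and 49.4 CPM in mutants, a log2 fold change of 0.44. The demethylase Utx rose from 57.0, 53.2 and 47.5 CPM to 70.3, 62.4 and 61.9 CPM (log2 fold change 0.30, adjusted p = 0.00943), and lost its call without control 3. E(z), the methyltransferase of the same complex as Pcl and Su(z)12, had 25.1 to 28.2 CPM in controls and 26.9 to 29.4 CPM in mutants (log2 fold change 0.05, adjusted p = 0.586). esc, a further core subunit, fell from 18.1, 13.7 and 15.9 CPM to 8.81, 10.1 and 8.74 CPM (log2 fold change -0.79, adjusted p = 9.72e-05).

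Of 40 splicing factors, 7 were lower and 1 higher. The count of higher members was 3 without control 2, 2 without control 1, mutant 1 or mutant 3, and 5 with the exon-length trend removed. snRNP-U1-70K fell from 59.4 to 67.9 CPM to 41.3 to 53.8 CPM (log2 fold change -0.37, adjusted p = 0.00583). In dosage compensation, the process that raises transcription of the male X, the noncoding RNA gene lncRNA:roX2 rose from 79.5, 64.9 and 67.7 CPM to 134, 120 and 111 CPM (log2 fold change 0.78, adjusted p = 0.00011), against a log2 fold change of -0.28 at 3d. The helicase mle of the same complex had a log2 fold change of -0.18 (adjusted p = 0.0323) and lost its call in 6 alternatives.

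Growth signalling genes gave shares near the background. Of 35 genes of TOR and insulin signalling, 7 were higher and 5 lower, and 4 were higher without mutant 3 and 3 lower without control 1 or mutant 2. Lst8, a subunit of both TOR complexes, rose from 12.9, 12.9 and 12.2 CPM to 15.6, 16.8 and 16.2 CPM (log2 fold change 0.36, standard error 0.085, adjusted p = 0.00533), and its exons overlap Gga. At 3d its log2 fold change was -0.20, and the difference between ages was 0.56 (adjusted p = 0.00692). S6k, a kinase that TOR activates, rose from 122 to 130.3 CPM to 164 to 172 CPM (log2 fold change 0.39, adjusted p = 4.16e-05). The kinase gene itself, mTor, had 52.2 to 65.7 CPM in controls and 50.1 to 55.4 CPM in mutants (log2 fold change -0.17, adjusted p = 0.18). Thor, the 4E-BP that TOR restrains, had 29.3, 43.5 and 36.6 CPM in controls and 58.0, 51.4 and 53.8 CPM in mutants. The groups did not overlap, yet its log2 fold change of 0.58 (standard error 0.20) lay just outside the threshold (adjusted p = 0.0502).

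In the ecdysone response, 2 of 24 genes were higher and 5 lower. With the exon-length trend removed 6 were higher, and without control 1 there was 1. ImpE1, an ecdysone-inducible gene, fell from 38.1, 34.6 and 30.2 CPM to 9.71, 11.4 and 12.8 CPM (log2 fold change -1.61, standard error 0.11, adjusted p = 2.43e-07), and the difference from 3d was -1.01 (adjusted p = 0.000915). Eip74EF, an ecdysone-induced transcription factor that miR-34 is known to target, rose by 0.44 on the log2 scale, with 39.3 to 44.0 CPM in controls and 55.6 to 60.3 CPM in mutants. Among other genes named from a hand-made list, Su(z)12, Nrx-IV and hts had log2 fold changes of 0.38, 0.33 and 0.29 and were called, and dlg1 had 0.10 and was not (adjusted p = 0.259). At 3d the log2 fold changes of Eip74EF and dlg1 were 0.69 and 0.31, and neither gene's effect differed between ages (adjusted p = 0.081 and 0.116).

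The largest single changes were in genes of several unrelated roles. Taken among called, named, protein-coding genes whose groups did not overlap and whose average log2 CPM was 3 or more, thw rose most, from 2.81, 1.88 and 1.70 CPM to 35.6, 32.1 and 46.7 CPM (log2 fold change 4.15, standard error 0.24, adjusted p = 4.26e-07). phr, a photolyase that repairs ultraviolet damage, rose from 9.55, 7.48 and 3.18 CPM to 41.8, 39.2 and 43.2 CPM (log2 fold change 2.61, adjusted p = 0.00104), with exons that overlap Prosalpha1. Swim, a secreted Wingless-interacting protein, rose from 13.4, 28.6 and 21.5 CPM to 65.2, 134 and 154 CPM (log2 fold change 2.48, adjusted p = 0.00142), with exons that overlap Vps35. These 3 genes were also higher at 3d, with log2 fold changes of 2.38, 1.96 and 1.88. Ance-3, related to angiotensin-converting enzymes, had 4.75 to 8.12 CPM in controls and 25.3 to 36.6 CPM in mutants (log2 fold change 2.23, adjusted p = 4.23e-06). Cad99C, a cadherin, had 5.99 to 12.4 and 16.4 to 56.1 CPM (log2 fold change 1.99, adjusted p = 0.00771), and lost its call in a fit of the 6 libraries of 20d alone.

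Some of the rises leaned on 1 library. GNBP-like3, of a family related to pattern recognition proteins, had 5.46, 8.95 and 5.07 CPM in controls and 16.6, 49.7 and 17.98 CPM in mutants (log2 fold change 2.12, standard error 0.46, adjusted p = 0.00787), and lost its call in a fit of the 20d libraries alone. Spn28Dc, a serpin of the melanization cascade, had 5.62, 7.66 and 8.25 CPM in controls and 11.3, 62.3 and 19.2 CPM in mutants (log2 fold change 2.11, standard error 0.57, adjusted p = 0.0219), and lost its call in 4 alternatives. Mutant 2 was the highest library for both, as it was for Drs.

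**Figure D5:**
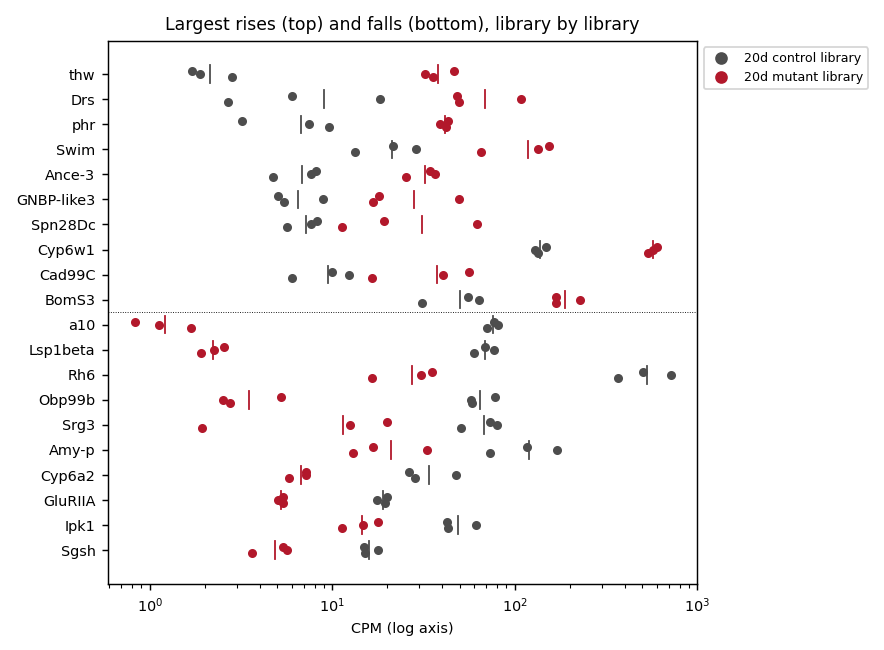
CPM on a log axis in each 20d control (grey) and mutant (red) library for the 10 largest rises and the 10 largest falls, with a tick at each group mean. The groups do not overlap for any of the 20 genes, since that was part of how they were taken. Spn28Dc and GNBP-like3 each have 1 mutant library far above the others.

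Among the falls, a10, a chemosensory protein of the antenna, stood first, from 70.1, 81.2 and 77.0 CPM to 1.68, 1.13 and 0.830 CPM (log2 fold change -5.94, standard error 0.69, adjusted p = 0.000271). Its log2 fold change at 3d was -0.54 (adjusted p = 0.556), and the difference between ages was -5.39 (adjusted p = 0.00602). Obp99b, an odorant-binding protein, fell from 58.1, 57.4 and 77.8 CPM to 2.76, 2.52 and 5.26 CPM (log2 fold change -4.22, adjusted p = 0.000263). Of 25 odorant-binding proteins tested, 3 were lower and 3 higher, and 5 were higher without control 3. Lsp1beta, a larval serum protein of the fat body, fell from 59.6 to 77.2 CPM to 1.90 to 2.54 CPM (log2 fold change -4.94, adjusted p = 4.58e-05), and like Obp99b it was lower at 3d too. Of 15 fat body markers 3 were lower and 2 higher, fon from 60.8 to 63.2 CPM to 98.2 to 129 CPM. Of these, 1 was higher without control 2, control 3, mutant 1 or mutant 2.

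Amy-p, an amylase, fell from 73.0, 171 and 116 CPM to 13.04, 32.9 and 16.8 CPM (log2 fold change -2.52, standard error 0.48, adjusted p = 0.00442). It belongs to a pair of near-identical copies, so its counts are uncertain. Across 13 digestive enzymes, the library medians were 3.04 in control 2 and 2.47 in mutant 2 and between -0.93 and -1.49 in the other 4 libraries. Amy-p was highest in these same libraries within each group, and a share of gut RNA in them was not tested. Ipk1, an inositol phosphate kinase, fell from 43.0, 61.6 and 42.3 CPM to 11.3, 14.7 and 17.9 CPM (log2 fold change -1.75, adjusted p = 0.000112). Sgsh, a lysosomal sulfatase that degrades heparan sulfate, fell from 15.1, 17.9 and 14.8 CPM to 3.63, 5.65 and 5.37 CPM (log2 fold change -1.71, adjusted p = 1.87e-06). Srg3 had 50.6, 79.6 and 73.0 CPM in controls and 1.94, 12.6 and 19.9 CPM in mutants (log2 fold change -2.58, standard error 0.68, adjusted p = 0.0204), lost its call in 3 alternatives and has exons that overlap transposable elements.

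Opsins differed singly. Rh6, an opsin of part of the R8 photoreceptors, fell from 367, 714 and 504 CPM to 16.4, 30.8 and 35.1 CPM (log2 fold change -4.27, standard error 0.36, adjusted p = 4.33e-05), and was as much lower at 3d (log2 fold change -4.10). Rh4, an opsin of R7 cells, had 816, 1501 and 977 CPM in controls and 270.4, 453 and 548 CPM in mutants (log2 fold change -1.37, adjusted p = 0.00889). Rh2, the opsin of the ocelli, had 288, 635 and 404 CPM in controls and 189 to 210.1 CPM in mutants (log2 fold change -1.12, adjusted p = 0.0062). Rh5, the opsin of the other R8 cells, had a log2 fold change of 0.43 (adjusted p = 0.339). The main opsin ninaE had 15627, 26792 and 17406 CPM in controls and 11618, 21339 and 27231 CPM in mutants (log2 fold change 0.01, adjusted p = 0.987), so this most abundant retinal message overlapped between the groups. Over 24 photoreceptor and lamina markers, 3 were lower and 1, rdgB, higher (log2 fold change 0.26), and 4 were higher without mutant 1. In a fit of the 6 libraries of 20d alone, 1 was lower.

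Other tissues contributed single genes. Of 19 tested muscle markers 2 were higher, and Act79B, an actin of tubular muscle, rose from 46.0, 42.2 and 41.3 CPM to 90.3, 90.8 and 80.1 CPM (log2 fold change 1.01, adjusted p = 1.17e-07). Of 9 hemocyte markers, PPO2, the prophenoloxidase of crystal cells, was the 1 called, from 36.5 to 41.5 CPM to 20.7 to 26.9 CPM (log2 fold change -0.76, adjusted p = 0.00314). Cuticle proteins gave 6 higher and 2 lower among 30 tested of 126, with 1 lower without control 3, mutant 2 or mutant 3. TwdlG fell from 38.7 to 42.3 CPM to 23.2 to 25.0 CPM (log2 fold change -0.76, adjusted p = 1.15e-05). The digestive protease gene Ser7 had a log2 fold change of 0.66 (adjusted p = 0.00576).

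Called genes were spread over every chromosome arm, with 29.1% of tested genes called on X, 29.9% on 2L, 33.9% on 2R, 33.0% on 3L and 33.2% on 3R. On chromosome 4, 34 of 98 tested genes were higher and 6 lower, a called share of 40.8%. Around mir-34 on 3R, 37.9% of 198 genes within 1 Mb were called, 33.3% of 405 genes from 1 to 3 Mb, 33.7% of 505 genes from 3 to 6 Mb and 32.3% of 1333 genes farther away. Called differences of at least 4-fold made up 3.54% of genes within 1 Mb and 2.03% beyond 6 Mb, from 7 and 27 genes. These windows are a description of 1 stock against another, and differences in genetic background between the stocks and effects of the deletion cannot be told apart here.

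A group of 3 genes near the locus was higher, a set noticed after the values were seen. In build BDGP6.54 they lie on 3R, Desi from 10779569 to 10780825, CG42633 from 10780965 to 10782267 and mRpL37 from 10782563 to 10784092. Desi had at most 1 count in any control library and 3.91 to 4.48 CPM in mutants, at least 32.1-fold higher. CG42633 had 0.449 to 0.627 CPM in controls and 2.05 to 2.33 CPM in mutants (log2 fold change 2.06). mRpL37 rose from 17.4, 17.7 and 18.4 CPM to 34.9, 32.0 and 31.7 CPM (log2 fold change 0.88, adjusted p = 4.46e-07). These 3 were also higher at 3d, where mRpL37 had a log2 fold change of 0.90.

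Noncoding RNAs were called about as often as other genes. Of 300 tested long noncoding RNAs, 44 were higher and 42 lower, and of 152 antisense RNAs, 19 and 20. Among the antisense RNAs, 12 were higher without control 1 and 13 lower without mutant 2. lncRNA:CR45054, which lies next to the mir-34 host transcript, had 10.9, 13.9 and 12.2 CPM in controls and 614, 686 and 712 CPM in mutants (log2 fold change 5.77, standard error 0.23, adjusted p = 1.49e-07). asRNA:CR45600 fell from 109, 72.7 and 96.3 CPM to 2.72, 1.35 and 1.27 CPM (log2 fold change -5.68, adjusted p = 5.46e-07), and overlaps other genes and a transposable element, so its reads are uncertain. lncRNA:CR45533 fell from 11.7 to 18.9 CPM to 7.52 to 9.02 CPM (log2 fold change -0.90), and asRNA:CR43906 rose from 6.18 to 7.28 CPM to 14.2 to 17.5 CPM (log2 fold change 1.24).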

How the data were processed

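Per the study's methods, 20 male brains were pooled for each library, polyA RNA was made into TruSeq Stranded libraries, reads were aligned with HISAT2 to the fly genome, and HTSeq counted reads per FlyBase gene. The methods name genome and annotation releases that differ from each other, and tool versions are not given in the sources used here. The deposited table holds raw read counts for 17612 genes, with no normalization by the authors, who tested them with DESeq2. Fly gene symbols and positions were matched to the Ensembl annotation of build BDGP6.54, for 17547 of the genes.

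The 12 libraries of the first experiment were fitted together with edgeR 4.0.16 (limma 3.58.1, R 4.3.3), with filterByExpr at a minimum count of 10, TMM factors and a robust quasi-likelihood test. The contrasts were mutant minus control at 20d, at 3d, and the difference between these. Genes were called at a Benjamini-Hochberg adjusted p under 0.05 over all 9961 genes tested, and the standard error of a log2 fold change was taken from the same test. All adjusted p-values given are of this fit. CPM used TMM-scaled library sizes. The biological coefficient of variation was 13.0%. Where no library of a group exceeded 3 counts, a gene was given a bound against a floor of 3 counts per library, which covers counting error only.

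The gene lists, the markers and the comparison were chosen with earlier results of these data known. Named genes were the 10 largest rises and 10 largest falls among called, named, protein-coding genes whose groups did not overlap and whose average log2 CPM was 3 or more, the called member with the largest rise and fall of each list above the same level, and a hand-made list of 13 genes, of which the study assayed only some by other means. A gene that the rule names is not reported here. Lists are described by counts and medians, with no test of the list. The replicates are called biological by the study. The 3 against 3 design allows no exact permutation p below 0.1, so only the model across all genes was used.

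Simulated counts with known changes for the 20d contrast were run on 9961 genes. There edgeR recovered 21 of 100 genes changed 1.3-fold and 78 of 100 changed 2-fold, and 6.60% of 106 calls were unchanged genes. Only these genes were changed, a far smaller share than the 32.1% called in the data. The cut set by the adjusted p depends on that share, so the recovery does not carry over to the real contrast. Alternatives were DESeq2 1.42.0, other size factors, other filters on low counts, the 20d libraries alone, a replicate block, each 20d library left out, and, chosen after seeing the data, offsets that remove the trend with exon length in each library. The second experiment was not used here. Tables were made with Python 3.11.15, pandas 2.3.3 and matplotlib 3.10.9.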

Additional observations from a re-analysis of the deposited data

Results flagged for a closer look

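By the interaction term of the edgeR model, the mutant effect differed between 20d and 3d for 8 of the 20 genes with the largest changes. It also differed for 2 of the 13 genes of the hand-made list. Over all genes, 8.29% had an effect at 20d above that at 3d, and 10.3% below. The 20 genes were taken by their change at 20d, so their count cannot be read against these shares. The values are the log2 fold change at 20d minus that at 3d. Among rises, the difference was 1.76 for thw (adjusted p = 0.00748), 1.55 for Ance-3 (adjusted p = 0.00271) and 3.69 for GNBP-like3 (adjusted p = 0.00884). Of these, thw and Ance-3 were higher at both ages, and GNBP-like3 had a log2 fold change of -1.57 at 3d (adjusted p = 0.0595).

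Among falls, the difference was -5.39 for a10, -1.22 for Cyp6a2, -0.68 for GluRIIA and -1.07 for Sgsh. Cyp6a2, GluRIIA and Sgsh were lower at both ages and further apart at 20d. Amy-p had a difference of 3.66, with a log2 fold change of -6.18 at 3d and -2.52 at 20d. The other pair was Lst8, with 0.56, and ref(2)P, with -0.26 (adjusted p = 0.043). The causes of these differences were not tested.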

How the results depend on the processing

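The counts of genes called higher, lower or different between ages stayed within 1.5 times the reported value under every alternative run. They ran from 1318 to 1742 for genes called higher, from 1149 to 1596 for genes called lower and from 1337 to 2164 for those that differed between ages. With each 20d library left out in turn, the ranges were 1318 to 1708, 1188 to 1596 and 1337 to 2164. With a replicate block, 1712 genes were higher, 1586 lower and 1893 different between ages. Same-numbered control and mutant libraries had correlations of deviations of 0.30, 0.22 and 0.02, and unlike-numbered ones from -0.30 to 0.12. For each control the same-numbered mutant library had the highest value. The labels do not say that the numbers pair the samples, and the main fit did not pair them. No gene described by rule changed direction where the main fit or the alternative called it. Changes of sign in genes called in neither fit were not counted. Of 112 genes described by rule, 2 lost their call with DESeq2, 3 with the exon-length offsets, 7 with no filter on low counts, 13 with the 20d libraries alone and between 5 and 13 with a library left out. Rpn2 and mRpL45 were lost with DESeq2, Rpn2, eIF4EHP and shakB with the exon-length offsets, and TotX and mRpL45 with the replicate block. List counts were less stable, since up to 22 of 112 moved by over 1.5 times when a library was left out and 18 did with the exon-length offsets. In the simulated data genes changed 1.3-fold were often missed, but far fewer genes were changed there than were called in the real contrast. A comparison by miR-34 seed sites was planned and not run, as it needs a genome sequence not used here.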
